A study of Mus musculus with 6 samples.

Results

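Natural killer (NK) cells were taken from the scRNA-seq data of whole mouse kidneys as 50 of the 60564 barcodes that passed the limits on depth and mitochondrial reads (0.0826%), out of 76774 barcodes deposited. They were selected on their own measured transcripts. A barcode was kept with at least 500 unique molecular identifiers (UMIs, counts of single captured transcripts) and at most 50% of them from mitochondrial (mt-) genes. An NK barcode had a UMI of at least 2 of Ncr1, Klrb1c, Klre1, Gzma and Eomes, 0 UMIs of the T cell receptor complex genes Cd3e, Cd3d and Cd3g, of the B cell gene Cd79a, of the endothelial gene Pecam1 and of the thick limb gene Slc12a1, a UMI of at most 1 of the macrophage genes C1qa, C1qb, C1qc and Adgre1, and at most 0.2% of its UMIs from the proximal tubule genes Lrp2, Slc34a1, Slc5a12 and Slc22a6. The levels of these genes within the NK barcodes are therefore a description and were not tested.

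The samples were 3 sham and 3 DOCA-salt mice, male C57BL/6 animals bought at 8 to 10 weeks of age, with 1 library per mouse. In the DOCA-salt mice the left kidney was removed and, one week later, a 50 mg pellet of deoxycorticosterone acetate (DOCA, a mineralocorticoid) was given with 1% NaCl as drinking water for 21 days. Sham mice had the operation without removal of the kidney, no pellet and normal water, so loss of a kidney and DOCA-salt cannot be told apart here. Kidneys were dispersed with collagenase II at body temperature, which leaves out cells that do not survive the procedure, and a share of barcodes therefore describes recovered cells and not cells in the tissue.

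NK cells are innate lymphocytes that kill stressed, infected or transformed cells without prior sensitization. Their activity is set by the balance between activating receptors, such as NKp46 (Ncr1) and NKG2D (Klrk1), and inhibitory receptors. Many members of the Ly49 family (Klra genes) and CD94 with NKG2A (Klrd1 with Klrc1) are inhibitory receptors for MHC class I. Some Ly49 members, such as that of Klra4, are activating. They deliver perforin and granzymes from cytotoxic granules and secrete interferon-gamma and chemokines. The kidney holds circulating, conventional NK cells, which depend on the transcription factor Eomes, and tissue-resident cells of the same lineage family, which overlap in their genes with type 1 innate lymphoid cells (ILC1).

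NK barcodes were few in every library. The sham mice gave 12, 17 and 9 of them and the DOCA-salt mice 5, 2 and 5, which is 38 against 12 barcodes. They held 1411 to 18420 UMIs each, with a median of 2831.5, and 175095 UMIs in all. The median per mouse was 2928, 2391 and 2991 UMIs in sham mice and 2589, 3148 and 4477 in DOCA-salt mice (exact permutation test over mice, p = 0.4). Median mt- shares were 8.54%, 7.05% and 14.4% in sham mice and 5.60%, 5.53% and 7.32% in DOCA-salt mice, which overlap (exact permutation p = 0.2, two-sided as in all tests over mice). None of the 50 barcode sequences occurred in another library, whereas 699 sequences of all deposited barcodes did.

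One barcode stood apart. In sham mouse 3 a barcode with 18420 UMIs supplied 37.7% of that mouse's NK UMIs and carried 40 UMIs of Atp6v1g3, a proton pump gene of intercalated cells of the collecting duct. It was 1 of 2 NK barcodes, both of this mouse, among the highest doublet scores of Scrublet. The medians of the ribosomal, mt-, proximal tubule, granule and immediate early genes and the calls of the last comparison are also given without these 2 barcodes. They held 18420 and 5519 of the 48861 NK UMIs of sham mouse 3. The levels of single genes in that mouse include them.

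The label was checked against 9 NK genes that the rule did not use, namely Klrd1, Nkg7, Prf1, Klrk1, Il2rb, Tyrobp, Fcer1g, Txk and Tbx21. All 50 NK barcodes had a UMI of at least 3 of them, with a median of 8. Nkg7, a protein of cytotoxic granules, was detected in 50 of 50, Fcer1g and Tyrobp, signaling adaptors of activating receptors, in 49 and 45, and Il2rb, the beta chain of the receptors for interleukins 2 and 15, in 48. Tbx21, the transcription factor T-bet, was found in 37 and Prf1, perforin, in 29. Among T barcodes (at least 2 Cd3 genes, 392 in all) 53.6% had at least 3 of the 9, and among the 33971 proximal tubule barcodes 0.0147% did.

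The threshold of 2 markers was met narrowly by 19 NK barcodes, which had exactly 2, and exceeded by 31. The 19 had a median of 7 of the 9 other NK genes and the 31 a median of 8. Just outside it, 49 barcodes had exactly 1 marker and met all other limits, with a median of 0 of the 9 genes, and 11 of them had 3 or more. These 49 were split evenly, 25 in sham and 24 in DOCA-salt mice, unlike the barcodes inside. Before the limits on other cell types, 123 barcodes had 2 or more NK markers (84 sham, 39 DOCA-salt). A Cd3 UMI removed 40 of the 123, 23 of the 84 in sham and 17 of the 39 in DOCA-salt mice. Of the remaining 83, 28 had a Pecam1 or Slc12a1 UMI, 9 exceeded the proximal tubule limit and 2 the macrophage limit, and a barcode could fail several of these.

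Genes of other cell types were partly present in the NK sums. All 9 granulocyte genes, 9 of 10 B and plasma cell genes and 7 of 11 endothelial genes had 0 UMIs. Of 8 ILC2 genes Gata3 had 11 UMIs, Hes1 had 6 and the others 0. The ILC3 list summed to 6.28 to 10.1 UMIs per 10000 in sham and 5.00 to 14.3 in DOCA-salt NK sums, and 5 of its 8 genes were at 0, while 59 of its 102 UMIs in sham and 17 of its 34 in DOCA-salt mice were of Ncr1, which is also an NK marker of the rule. The T cell list summed to 4.30 to 13.3 in sham and 4.76 to 18.5 in DOCA-salt NK sums, with 8 of 16 genes at 0. Themis, Cd5 and Cd6 were among those at 0, Trac had 2 UMIs and Trdc 1, whereas Cd28 had 86, Trbc1 45, Trbc2 38 and Icos 12. The part of T cells in the NK barcodes was not tested. Macrophage genes summed to 0.689 to 1.02 per 10000 in sham and 0.625 to 14.3 in DOCA-salt NK sums, mostly as Cd74 (7 and 10 UMIs in DOCA-salt mice 2 and 3), with 9 of 16 at 0. Fibroblast and mural genes, with 5 and 8 UMIs in all, summed to 0.230 to 0.502 in sham and 1.46 to 3.18 in DOCA-salt NK sums, without overlap, and the genes of other tubule segments to 2.53 to 19.2 and 1.59 to 3.89, with overlap. Their part in the results was not tested. Transcripts of the proximal tubule were present in every NK sum, as they were in T barcodes, and are given beside the expression results.

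What distinguished NK barcodes from the other kept barcodes of the same mouse is described here without a test, since the barcodes were chosen on related genes. The genes with the highest mean log2 ratio were Ccl5 (71.1 ± 10.2 against 0.292 ± 0.0977 UMIs per 10000, mean ± SD over 6 mice), Xcl1, Nkg7, Il2rb, the long noncoding RNA AW112010, Txk, Gm2682, Stat4, ENSMUSG00000121360 and Tbx21, higher in 6 of 6 mice. Ccl5 and Xcl1 encode chemokines that attract T cells and dendritic cells, and Stat4 transmits the interleukin 12 signal. The ratio was 7.54 ± 0.36 on the log2 scale for Ccl5, 7.16 ± 0.96 for Xcl1 and 6.43 ± 0.47 for Nkg7.

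Against T barcodes the order was different. Tyrobp led with a log2 ratio of 5.74 ± 0.90, at 10.9 UMIs per 10000 in NK and 0.102 in T sums. The Ly49 genes Klra4 and Klra8 had 0 UMIs in T barcodes of all mice and 60 and 58 UMIs in the NK barcodes. Klrb1b, an inhibitory receptor of the NKR-P1 family, Fcer1g, Klri2, Prf1 and Irf8 followed. At the other end stood Themis, Trac, Cd6, Bcl11b, Cd5, Cd8b1 and Icos, and also Ifi27l2a, an interferon-stimulated gene with 0 UMIs in NK and 2.55 ± 0.924 per 10000 in T sums.

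Many of the receptors lie together in the NK gene complex. In GENCODE on GRCm39, 13 chosen Klr genes span chr6:128755448-130314545, from Klrb1c on the minus strand to Klra3. The 13 leave out other Klr genes of the lists, such as Klra1, Klra5 and Klri1. They were detected in 7 (Klra7) to 38 (Klre1) of 50 NK barcodes. Klrb1c and Klre1 are genes of the rule, so their detection was partly set by it. Ncr1, also a gene of the rule, lies apart, at chr7:4340710-4348171 on the plus strand. It had 76 UMIs in 35 NK barcodes against 1 UMI in 392 T barcodes. Some Klra genes are closely similar in sequence, as are Klrc1 and Klrc2. Reads of one may therefore be counted for another or dropped, and values of single members are uncertain. Whether an NK cell expresses a given Ly49 gene also varies from cell to cell.

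The first comparison asked whether DOCA-salt kidneys gave fewer or more NK cells. NK barcodes were 0.111%, 0.206% and 0.0827% of the kept barcodes of the sham mice and 0.0521%, 0.0191% and 0.0474% of those of the DOCA-salt mice. Every DOCA-salt mouse was below every sham mouse. The means were 0.133 ± 0.0647% and 0.0395 ± 0.0179% (SD, n = 3 and 3), which is 3.37 times higher in sham. The exact permutation p was 0.1, the smallest value that 3 against 3 mice can give, so this design cannot reach 0.05 by that test. Counting error alone was wide: the exact 95% interval was 0.0573 to 0.194% in sham mouse 1 and 0.00231 to 0.0688% in DOCA-salt mouse 2, and the intervals of sham mouse 3 (0.0378 to 0.157%) and of each DOCA-salt mouse overlapped.

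**Figure D1:**
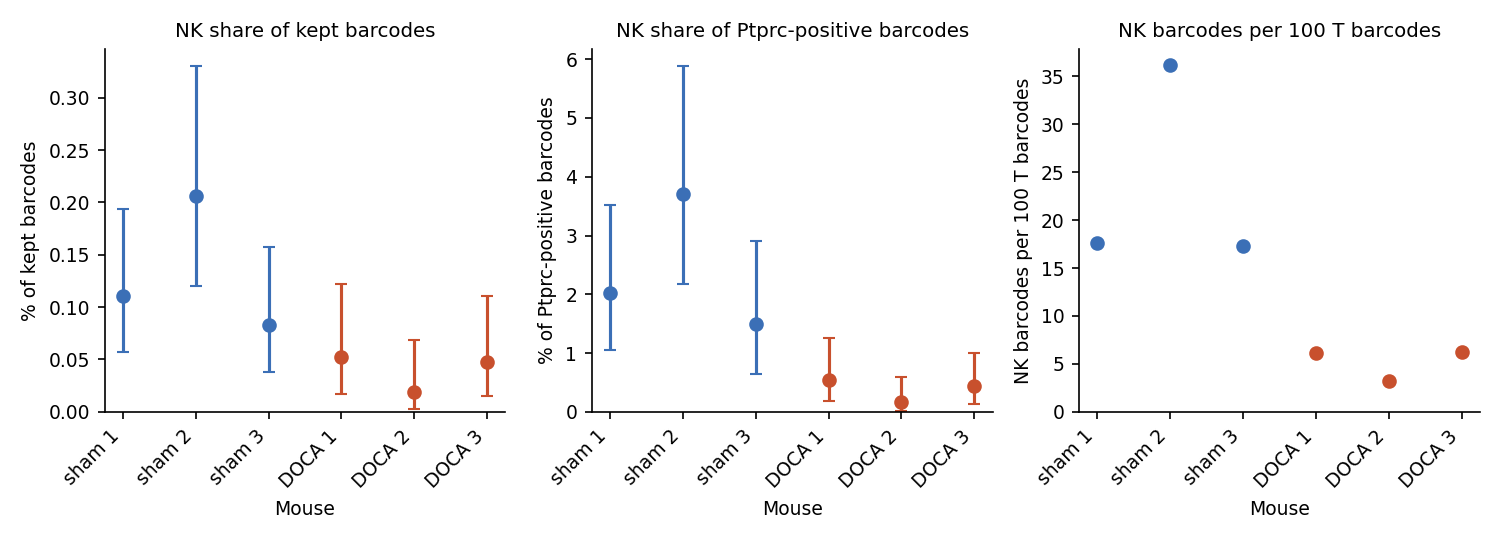
NK barcodes of each of the 6 mice as a percent of kept barcodes (left) and of kept barcodes with a Ptprc UMI (middle), with exact binomial 95% intervals that cover counting error only, and per 100 T barcodes (right). Sham mice are blue and DOCA-salt mice red, and in all 3 panels every sham mouse lies above every DOCA-salt mouse.

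Immune barcodes, taken as those with a UMI of Ptprc (CD45, the pan-leukocyte phosphatase), were a larger share of DOCA-salt kidneys (10.7 ± 1.02%) than of sham kidneys (5.32 ± 0.334%). Within them NK barcodes (with a Ptprc UMI in 8 of 9 of sham mouse 3 and in all of the other mice) were 2.03%, 3.71% and 1.49% in sham and 0.542%, 0.164% and 0.433% in DOCA-salt mice, again without overlap and with the smallest possible exact permutation p of 0.1. Macrophage barcodes were 4.25 ± 0.637% of kept barcodes in DOCA-salt mice against 1.10 ± 0.212% in sham mice, and so weigh on this denominator. Relative to the barcodes without a Ptprc UMI, NK barcodes were 14.1 ± 6.87 per 10000 in sham and 4.42 ± 1.97 per 10000 in DOCA-salt mice (exact permutation p = 0.1, no overlap). Macrophage barcodes in which no Ptprc UMI was captured fall in this denominator and were not counted apart.

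T barcodes did not follow the NK barcodes. They were 0.559 ± 0.0760% of kept barcodes in sham and 0.738 ± 0.129% in DOCA-salt mice (exact permutation p = 0.2). Per 100 T barcodes there were 17.6, 36.2 and 17.3 NK barcodes in sham and 6.10, 3.17 and 6.25 in DOCA-salt mice. The log2 ratio of NK to T barcodes was -2.17 ± 0.61 in sham and -4.34 ± 0.55 in DOCA-salt mice, a difference of -2.17 (exact permutation p = 0.1, no overlap). B barcodes were also a lower share in DOCA-salt mice (0.214 ± 0.0561% and 0.0893 ± 0.0342%), and NK barcodes per 100 B barcodes overlapped between the groups (62.9 ± 27.9 and 49.1 ± 31.2, exact permutation p = 0.6).

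With the NK markers alone and no limits on other cell types, the shares differed by -0.157 percentage points, and the ratio of the sham mean to the DOCA-salt mean was 2.24 in place of 3.37. A model that can go below 0.1 was added after the shares had been seen. edgeR's quasi-likelihood test on barcode numbers of 6 marker-defined classes (NK, T, B, macrophage, proximal tubule and all others) gave a log2 change of the NK share of -1.67 with a standard error of 0.54 and a Benjamini-Hochberg adjusted p of 0.0132 over the 6 classes, lower in 3 of 3 DOCA-salt mice. The model called 5 of the 6 classes, with B barcodes at -1.27 (adjusted p = 0.00964 by edgeR), macrophages at 1.98, proximal tubule barcodes at -0.23 and all others at 0.21, and not T barcodes (0.40, adjusted p = 0.0533 by edgeR). The NK call was lost without DOCA-salt mouse 2, the mouse with 2 NK barcodes (log2 change -1.33, adjusted p = 0.0827). The difference in share, -0.0937 percentage points, was -0.0573 without sham mouse 2, the mouse with 17. With at least 3 markers required it was -0.0548, and among barcodes with at most 20% mt- UMIs, where the total shrinks, -0.183. No setting changed its direction. Requiring 2 or more of Ncr1, Klrb1c and Klre1 alone, without the effector gene Gzma or Eomes, left 41 barcodes (32 and 9) and a difference of -0.0832.

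NK barcodes were then described along the axis from conventional to tissue-resident. For each barcode the detected genes of 2 fixed lists were counted, 13 conventional markers (such as Itga2, the integrin CD49b, Itgam, S1pr5, Klra4, Klra8, Zeb2 and Irf8) and 13 resident or ILC1 markers (such as Itga1, the integrin CD49a, Cxcr6, Il7r, Inpp4b, Ltb and Rora). More conventional markers were found in 27 barcodes, more resident markers in 21 and equal numbers in 2. These are ranges of a score and not cell types: 10 barcodes lay within 1 gene of equality and 32 were more than 2 genes away. Depth was similar, with medians of 2755 and 3065 UMIs. The resident list was not specific to NK cells. On average it held 15.7 UMIs per 10000 in sham and 23.5 in DOCA-salt NK sums. In T sums it held 32.3 and in all other kept barcodes 15.6. The conventional list held 25.1 and 21.3 in these NK sums, 3.26 in T sums and 2.81 in all other kept barcodes. The part of T cells or of other kidney transcripts in the resident scores was not tested.

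**Figure D2:**
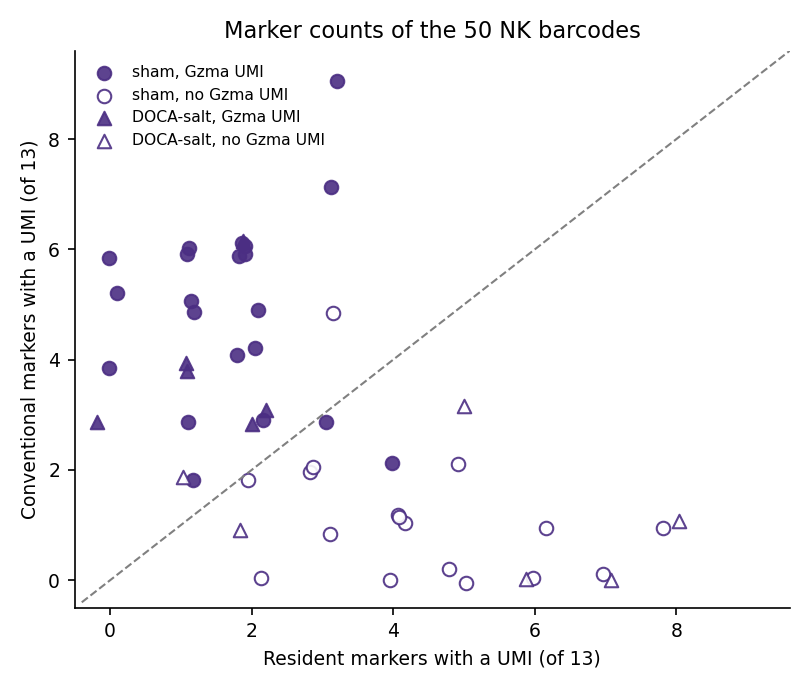
Number of conventional markers (y axis) and of resident markers (x axis) with at least 1 UMI in each of the 50 NK barcodes, with points shifted slightly at random so that all can be seen; circles are sham, triangles DOCA-salt, and filled symbols have a Gzma UMI. Most filled symbols lie above the dashed line of equality (25 of 27) and most open ones below it (20 of 23), in both groups.

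Gzma, the gene of granzyme A and part of the rule, split along this axis. It had a UMI in 25 of the 27 conventional barcodes, with a median of 15 UMIs, and in 1 of the 21 resident ones, with a median of 0. Of the 23 barcodes without a Gzma UMI, 20 were resident. Eomes, also part of the rule, followed it with 13 conventional and 1 resident barcode. Since the rule asked for 2 of 5 genes, barcodes without Gzma and Eomes had to carry Ncr1, Klrb1c or Klre1, and the presence of these in the resident range was set by the rule.

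Genes outside both lists and outside the rule also differed between the ranges, which is described here with no test since the barcodes of a mouse are not replicates. The granule genes Prf1 and Gzmb had a UMI in 23 and 20 of the 27 conventional and in 5 and 4 of the 21 resident barcodes. Klf2, a transcription factor of circulating lymphocytes, was found in 27 of 27 against 10 of 21, at 20.9 and 11.8 UMIs per 10000. Xcl1, the chemokine for cross-presenting dendritic cells, went the other way, with 12 of 27 conventional and 21 of 21 resident barcodes, at 8.71 and 33.7 UMIs per 10000 and medians of 0 and 7 UMIs. The activating receptor Cd226 (1 of 27 and 12 of 21), Ikzf2, the transcription factor Helios (4 and 15), and the inhibitory receptors Klrc1 (6 and 14) and Klrb1b (14 and 20) were also found more often in the resident range. So was Cd28, a gene of the T cell list. Nkg7 was present in every barcode of both ranges and Tbx21 in 19 and 17, so these genes did not separate them.

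**Figure D3:**
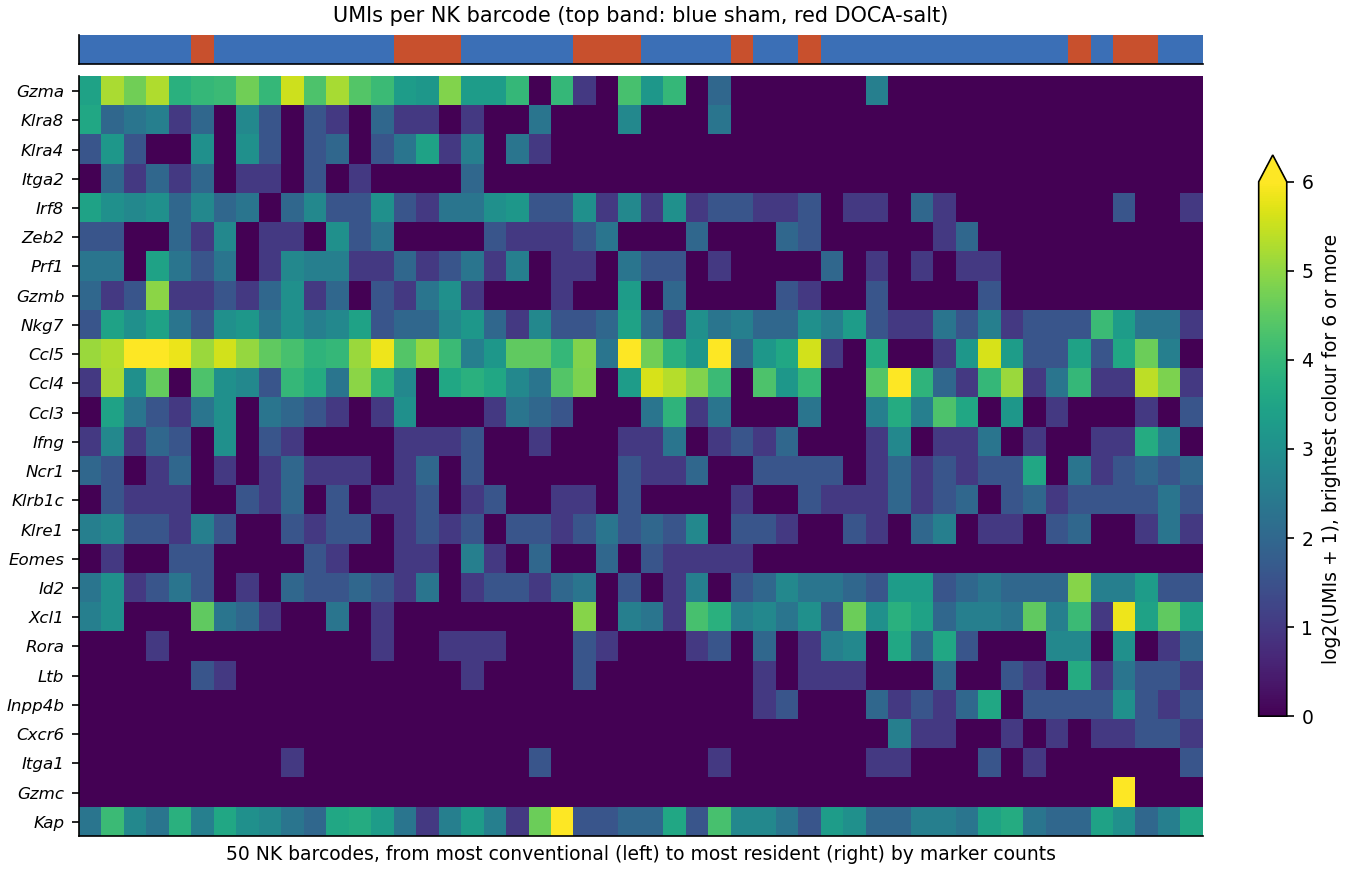
UMIs of 26 genes (rows) in the 50 NK barcodes (columns) as log2(UMIs + 1), ordered by conventional minus resident marker count, with a band giving the group (blue sham, red DOCA-salt). Gzma and the Klra genes fill the left side, Xcl1 and Inpp4b mostly the right, Nkg7 both, and DOCA-salt barcodes occur on both sides; Gzmc is in 1 barcode.

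Both ranges occurred in every mouse. Conventional barcodes numbered 6, 7 and 7 in sham and 3, 1 and 3 in DOCA-salt mice, and resident ones 6, 9 and 1 against 2, 1 and 2. The conventional share of NK barcodes was 56.3 ± 19.1% and 56.7 ± 5.77% (difference 0.349 percentage points, exact permutation p = 1), and it rests on as few as 2 barcodes in a mouse. Per 10000 kept barcodes, conventional ones were 6.82 ± 1.51 in sham and 2.31 ± 1.18 in DOCA-salt mice, without overlap (exact permutation p = 0.1). Resident ones were 5.79 ± 5.00 and 1.65 ± 0.607, with overlap (exact permutation p = 0.4), since sham mouse 3 had only 1.

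Expression within NK cells was compared on UMIs summed per mouse, and levels are UMIs per 10000 of that sum. The test had been planned only for mice with 10 or more NK barcodes, which 4 of the 6 mice did not give, so the fit was run with that condition lifted. edgeR's quasi-likelihood test called 0 of 432 genes at an adjusted p below 0.05 (0%), with a smallest adjusted p of 0.375. At an unadjusted p below 0.05 there were 44 (10.2%), 15 higher in DOCA-salt mice (3.47% of genes tested) and 29 lower (6.71%). The levels of the groups did not overlap for 60 genes that were higher in every DOCA-salt mouse (13.9%) and 21 that were lower (4.86%), which is the background for each statement on the overlap of single genes. These levels are scaled by the NK sum only, and edgeR's log2 changes and p-values also by its TMM factors. The directions of the 60 and 21 and of the 15 and 29 are therefore on unlike scales. DESeq2, which also fitted genes of low counts, called 0 of 10975, with 67 at an unadjusted p below 0.05. NK sums of 6296 UMIs (DOCA-salt mouse 2) to 48861 UMIs (sham mouse 3) leave most genes under the count limit of the test. The 0 calls therefore do not show that the levels of the groups were equal.

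No granule gene that met the count limit passed the test. Prf1 stood at 4.77, 7.35 and 3.48 UMIs per 10000 in sham and 3.75, 1.59 and 2.91 in DOCA-salt mice, with overlap of the groups (log2 change -1.04, SE 0.51, adjusted p = 0.453 by edgeR). The level of sham mouse 3 includes the 2 barcodes of high doublet score, which held 0 and 1 of its 17 Prf1 UMIs. Gzmb, granzyme B, overlapped widely (4.52, 9.42 and 1.64 against 1.88, 6.35 and 7.77). Serpinb9, the inhibitor that shields a killer cell from its own granzyme B, was 7.03, 6.20 and 4.09 in sham and 5.63, 1.59 and 1.46 in DOCA-salt mice. Gzma, given as a description because it chose the barcodes, was 34.2, 27.3 and 28.7 in sham and 15.6, 12.7 and 22.3 in DOCA-salt mice, and the groups did not overlap. Of the 21 genes of the granule and death ligand list 5 could be tested, 1 with a positive and 4 with a negative estimate, and 0 passed (median log2 change -0.40, beside -0.07 over all 432 genes). The median was -0.50 without the 2 barcodes of high doublet score and -0.09, with 2 of 4 positive, without sham mouse 2. Without those 2 barcodes, 2 of the 5 genes were lower at an unadjusted p below 0.05 by edgeR, and 0 passed. Over all genes it was 31 of 342 lower, against 0 of the 5 granule genes and 29 of 432 with all barcodes. All 21 genes together summed to 54.5 ± 16.1 UMIs per 10000 in sham and 60.9 ± 31.2 in DOCA-salt mice, the latter including the 80 UMIs of Gzmc described next.

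Granzyme C, a granzyme of strongly activated NK cells and ILC1, came from a single barcode. Of its 80 UMIs all were in 1 barcode of DOCA-salt mouse 3, which had 57 UMIs of Xcl1, 0 of Gzma and a resident score. The other 49 NK barcodes had 0, and no statement about the groups can rest on it. Gzmc was nevertheless among the genes called when the filter on low counts was left out.

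**Figure D4:**
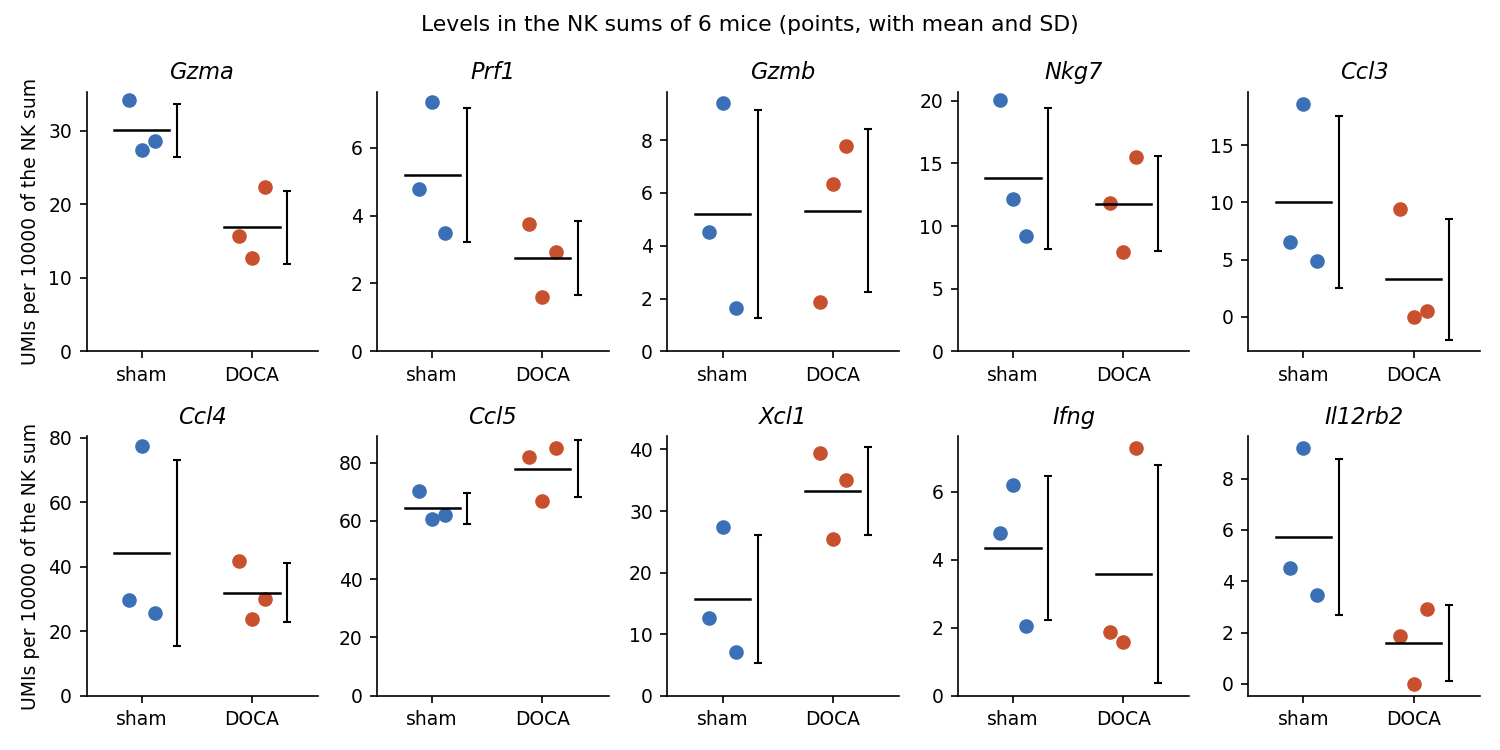
Levels of 10 effector genes in the NK sum of each mouse, in UMIs per 10000 UMIs of the sum (points), with the mean (line) and SD (bar) of the 3 mice of each group. Gzma and Il12rb2 are lower in each DOCA-salt mouse than in any sham mouse, Xcl1 overlaps by 1 mouse of each group, and the remaining genes overlap; Gzma was used to choose the barcodes, and none of the other genes passed the test with all 6 mice.

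Among the secreted factors no chemokine passed the test with all 6 mice, and all 4 that were tested overlapped between the groups. Ccl3 had 26, 81 and 24 UMIs in the NK barcodes of the sham mice and 15, 0 and 1 in those of the DOCA-salt mice, or 6.53, 18.6 and 4.91 against 9.38, 0 and 0.486 per 10000. DOCA-salt mouse 1 thus lay within the sham range and the other DOCA-salt mice below it. Ccl4, a chemokine closely related to Ccl3, was 29.6, 77.4 and 25.6 in sham and 41.9, 23.8 and 30.1 in DOCA-salt mice. Xcl1 was 12.6, 27.3 and 7.16 in sham and 39.4, 25.4 and 35.0 in DOCA-salt mice (log2 change 0.89, SE 0.38, adjusted p = 0.453 by edgeR). Without sham mouse 2, the sham mouse with the highest level, Xcl1 passed the test at a log2 change of 1.38, so its call turned on 1 mouse. The DOCA-salt levels of Xcl1 also rested on few barcodes. In DOCA-salt mouse 3, 57 of its 72 UMIs were in 1 barcode, and in DOCA-salt mouse 2 all 16 were in 1 barcode. Ccl5 was 70.3, 60.6 and 62.0 against 81.9, 66.7 and 85.0 (log2 change -0.02, SE 0.33). Ifng, interferon-gamma, overlapped fully (4.77, 6.20 and 2.05 against 1.88, 1.59 and 7.29).

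Since the pooled median depth of NK barcodes was 2766 UMIs in sham and 3421 in DOCA-salt mice, the share of barcodes with a UMI was also compared after thinning each to 1000 UMIs. The exact test of 3 against 3 mice cannot go below 0.1, so no gene could pass. Of the 10 genes compared, only Ccl5 did not overlap between the groups, at 81.1 ± 3.39% of sham and 93.4 ± 3.12% of DOCA-salt NK barcodes (unthinned 89.6% and 100%, exact permutation p = 0.1, 0.6 after Benjamini-Hochberg adjustment over the 10 genes). In proximal tubule barcodes, which should lack it, the thinned share was 0.151% and 0.260%, at median depths of 7134.5 and 8970 UMIs. Prf1 was at 36.5 ± 5.70% and 27.5 ± 4.26%, and Ccl3 at 45.8 ± 12.9% and 17.4 ± 26.4%. Xcl1 was at 47.7%, 67.8% and 40.9% in sham and 75.6%, 49.4% and 54.9% in DOCA-salt mice.

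Few receptor and signaling genes had enough UMIs for the test, and none passed. Of 24 activating receptor and adaptor genes 4 could be tested (Klrk1, Tyrobp, Fcer1g and Sh2d2a), with estimates from -0.43 to 0.28 on the log2 scale. Of the 24 genes listed as inhibitory receptors 4 could be tested. Klrc1, Klrd1 and Klrb1b ranged from -0.65 to 0.26. Klra4, an activating Ly49 gene that the list also holds, was at 0.75. Il12rb2, the signaling chain of the interleukin 12 receptor, had the lowest unadjusted p of the 7 genes tested in its list of 29, with 4.52, 9.19 and 3.48 UMIs per 10000 in sham and 1.88, 0 and 2.91 in DOCA-salt mice, which did not overlap (log2 change -1.72, SE 0.63, adjusted p = 0.375 by edgeR). In T sums it averaged 3.49 in sham and 0.960 in DOCA-salt mice. It did not pass the adjustment, and its gene overlaps Serbp1 on the opposite strand. Cxcr3, the receptor for interferon-induced chemokines, was counted 10 times in sham NK barcodes and 0 times in DOCA-salt ones, a depth at which no fold is given. Transcription factors had 9 testable members of 26, 3 with positive estimates, from -0.73 (Ets1) to 0.97 (Id2). The Id2 value rested on DOCA-salt mouse 2, whose level of 52.4 came mainly from 1 barcode with 29 UMIs, against 4.91 to 13.1 in the other mice.

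Of the 5 genes of smallest p in each direction, outside the rule and the lists of other cell types, 3 of the higher ones were ribosomal and 4 of the lower ones mitochondrial. Rps15a was 25.6, 32.6 and 20.5 UMIs per 10000 in sham and 53.8, 73.1 and 55.4 in DOCA-salt mice, without overlap (log2 change 0.92, SE 0.29, adjusted p = 0.375 by edgeR). Rps3a1 and Rpl22 were likewise higher in every DOCA-salt mouse. Of the 77 ribosomal protein genes tested 70 had positive estimates, with a median of 0.42, and 9 had an unadjusted p below 0.05, all higher, beside 10.2% of all genes in either direction and 3.47% higher. Without the 2 barcodes of high doublet score 68 of 76 were positive (median 0.43), and without sham mouse 2 it was 58 of 75 (median 0.25). Over all 432 genes 198 estimates were positive and the median was -0.07. The group was chosen after these values had been seen.

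Mitochondrially encoded genes stood on the other side. mt-Nd1, a subunit of respiratory complex I, was 66.8, 64.1 and 119 UMIs per 10000 in sham and 43.8, 30.2 and 39.8 in DOCA-salt mice, without overlap (log2 change -1.49, SE 0.43, adjusted p = 0.375 by edgeR). The log2 change of mt-Nd1 was -0.91 without sham mouse 3. The gene passed the test without sham mouse 2 and without the filter on low counts (adjusted p = 0.0151 by edgeR in the latter). All 10 mt- genes tested had negative estimates, with a median of -1.40, and 9 had an unadjusted p below 0.05. Without the 2 barcodes of high doublet score the median was -0.99, and without sham mouse 3 it was -0.59, with 10 of 10 still negative in both. Median mt- shares of all kept barcodes were 19.2%, 19.6% and 25.9% in sham and 16.1%, 18.5% and 19.8% in DOCA-salt mice, and those of T barcodes 8.16%, 6.57% and 11.9% against 5.59%, 5.71% and 6.99%, both with overlap. In the comparison of NK with T barcodes described last, no mt- gene passed, with mt-Nd4 at -1.15 (SE 0.32, adjusted p = 0.0933 by edgeR). The part of cell quality in these 2 groups of genes was not tested.

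Scaling bears on these directions. With library size only in place of TMM, the median over all genes moved from -0.07 to 0.11 and the split of genes at an unadjusted p below 0.05 from 15 higher and 29 lower to 31 higher and 17 lower. DESeq2's size factors gave 21 higher and 26 lower. The ribosomal genes were positive in 70 of 77, 70 of 77 and 76 of 77 under TMM, DESeq2's factors and library size, and mt- genes were negative in 10 of 10 under each.

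**Figure D5:**
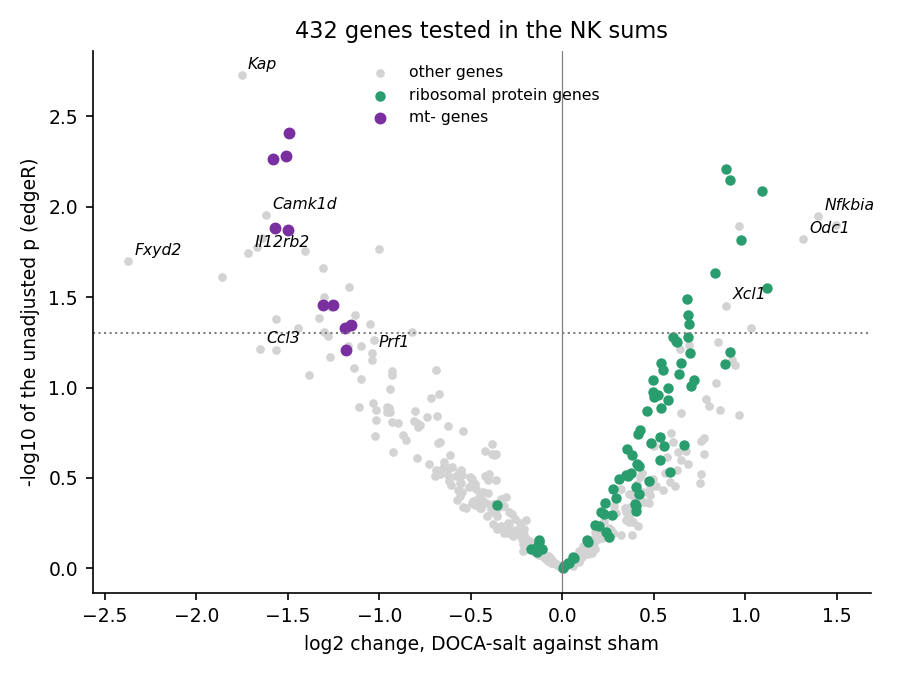
Log2 change between DOCA-salt and sham mice (x axis) against -log10 of the unadjusted edgeR p (y axis) for the 432 genes tested in the NK sums, with ribosomal protein genes green, mt- genes purple and other genes grey. The dotted line marks an unadjusted edgeR p of 0.05; 15 genes lie above it on the right and 29 on the left, and none passed the adjustment.

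Kap and Fxyd2, abundant tubule transcripts, had log2 changes of -1.75 and -2.37. They did not pass the adjustment in the fit of all 6 mice with the filter on low counts. Both passed without that filter and without sham mouse 2, and Kap also with at least 3 NK markers required. Fxyd2 overlapped between the groups, and sham mouse 3 held 211 of its 263 sham UMIs, 127 of them in 1 barcode. For the 3 proximal tubule genes tested the median was -1.75, against -0.85 without the 2 barcodes of high doublet score and -0.47 without sham mouse 3, with 3 of 3 negative each time. Kap was 24.4, 15.8 and 36.2 UMIs per 10000 in sham and 11.9, 6.35 and 9.71 in DOCA-salt mice, and was detected in 50 of 50 NK barcodes. In T sums it averaged 25.2 and 8.44, and in all other kept barcodes 157 and 92.1, for sham and DOCA-salt. The whole list of 16 proximal tubule genes, all of which had a UMI, summed to 46.4 to 147 in sham and 25.4 to 40.0 in DOCA-salt NK sums. Whether these transcripts came from free RNA or from doublets, and their part in the expression results, was not tested.

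Nfkbia, the inhibitor of NF-kappaB and an immediate early gene, was 2.01, 5.51 and 4.09 UMIs per 10000 in sham and 11.3, 12.7 and 14.1 in DOCA-salt mice, without overlap (log2 change 1.40, SE 0.47, adjusted p = 0.375 by edgeR). Without sham mouse 1 the log2 change was 0.91 (adjusted p = 0.759 by edgeR). Of 19 testable immediate early and dissociation genes of a list of 32, 14 had positive estimates, with a median of 0.35. Only 1, Nfkbia, had an unadjusted p below 0.05, beside 10.2% of all genes in either direction and 3.47% higher. The median was 0.29 without the 2 barcodes of high doublet score and 0.20 without sham mouse 3, and 0.55 with 17 of 19 positive when samples were scaled by library size only. Besides Nfkbia, the chaperone gene Hspa8 (9.04, 6.20 and 8.80 against 13.8, 19.1 and 9.71) and Tnfaip3, another inhibitor of NF-kappaB (5.02, 4.59 and 4.30 against 6.25, 11.1 and 6.80), did not overlap between the groups, and the other 16, Jun, Junb and Fos among them, did. These 3 of 19 are near the 13.9% of all genes. Pkp4, a plakophilin, and Odc1, the first enzyme of polyamine synthesis, were also higher in each DOCA-salt mouse than in any sham mouse, and Camk1d, a calcium-dependent kinase, lower (7.28, 7.35 and 7.16 against 1.25, 4.76 and 3.40). None of these passed the adjustment.

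Few UMIs of interferon-stimulated genes were counted in the NK barcodes. The list of 38 summed to 7.79 to 11.5 UMIs per 10000 in sham and 13.6 to 31.3 in DOCA-salt NK sums, without overlap. These were 121 and 87 UMIs, and 11 of the 38 genes were at 0. The means were 9.15 and 19.7 in these NK sums, 27.1 in T sums and 13.4 in all other kept barcodes. Ly6e was the only testable member (1.76, 1.84 and 1.02 against 3.75, 4.76 and 3.40, without overlap, log2 change 1.03, SE 0.47, adjusted p = 0.453 by edgeR). Of 18 cell cycle genes 12 had a UMI, summing to 16.7 ± 0.967 per 10000 in sham and 18.3 ± 7.96 in DOCA-salt mice. Most of these were H2az1 (157 UMIs) and Hmgb2 (74), chromatin genes that are also expressed outside division, while Mki67, Cdk1, Ccna2 and Ccnb2 were at 0.

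Of the receptors that the study followed in macrophages, P2rx4 had 2 UMIs, both in DOCA-salt mouse 3, and P2ry6 and P2rx7 had 0. The list of 19 purinergic and adenosine genes was detected for 10 genes, at 3.95 ± 0.578 UMIs per 10000 in sham NK sums against 2.08 ± 2.19, with overlap. P2rx7, the ATP-gated channel that starts pyroptosis, was thus found in 0 of 50 NK barcodes, which allows a share of up to 6% of barcodes with a UMI. In T barcodes thinned to the same depth the share was 6.98% in sham and 2.90% in DOCA-salt mice, and in proximal tubule barcodes 0.0265% and 0.0698%, so absence from NK cells cannot be stated at this number of barcodes. Nlrp3 and Il1b had 0 UMIs, Casp1 4 and Gsdmd 3. Adora2a, the adenosine receptor that restrains lymphocytes, was counted 1, 9 and 6 times in the sham mice and 0, 0 and 2 times in the DOCA-salt mice. The NK sums behind these counts were unlike, with 39813, 43539 and 48861 UMIs in sham and 15998, 6296 and 20588 in DOCA-salt mice. No fold is given for Adora2a at this depth. Nr3c2, the mineralocorticoid receptor, had UMIs in 3 NK barcodes (8 UMIs, 6 of them in sham mouse 3), and the glucocorticoid receptor gene Nr3c1 in 25 (41 UMIs in sham, 13 in DOCA-salt), with 4.52, 3.22 and 1.84 per 10000 in sham and 3.13, 3.18 and 2.91 in DOCA-salt mice.

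A last comparison asked whether the difference between DOCA-salt and sham mice was another one in NK than in T barcodes of the same mice. In an edgeR model with each mouse as a block, 5 of 2726 genes passed an adjusted p of 0.05 for this interaction (0.183%). Ccl3 was the only one of them in a list of NK genes. With library size only in place of TMM 7 genes passed, and Xcl1 was then another gene of these lists. The NK levels of Ccl3, given above, overlapped between the groups (log2 change -1.65, adjusted p = 0.453 by edgeR). T sums held 56, 1 and 6 UMIs of Ccl3 in the sham group against 48, 12 and 119. For Ccl3 the log2 difference of the changes was -2.94 (SE 0.69, adjusted p = 0.0195 by edgeR). In the T sums too, 1 sham mouse was far from the other ones. The NK counts of Plxnc1, a semaphorin receptor, were 2, 0 and 0 in sham and 8, 0 and 5 in DOCA-salt mice, and 26, 8 and 13 against 8, 13 and 12 in T sums (difference 5.17, SE 1.22).

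The other calls rested on still fewer barcodes. Atg4a, an autophagy protease, had 10, 6 and 16 UMIs in 8 sham NK barcodes and 0 in DOCA-salt ones. For Car12, 40 of its 43 NK UMIs, and for Igfbp5, 30 of its 32, were in a single barcode, and neither was called without the 2 barcodes of high doublet score, where Ccl3, Plxnc1 and Atg4a were. With 1 mouse left out at a time 0 to 8 genes were called. Ccl3 was called in 2 of these 6 fits, without sham mouse 1 and without DOCA-salt mouse 1, and Plxnc1 and Atg4a in 0. None of the 5 genes was called without sham mouse 3 (0 calls) or without DOCA-salt mouse 3 (8 calls of other genes, 6 of them mt-).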

How the data were processed

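Single-cell suspensions of 6 kidneys were prepared with the 10x Genomics 3′ v3.1 kit. The deposited files hold raw UMI counts per gene (33696) and barcode, which the authors made with Cell Ranger 9.0.0 (8.0.1 per the file headers) on GRCm39. They are limited to called cells and not normalized, and no annotation of cell types was used. Total UMIs per library ranged from 93172739 to 137819127. The authors' own filters used Seurat 4.0.0.

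Members and gene lists were chosen with earlier results of these data known. Barcodes were selected by the stated rule, with no doublet removal. Scrublet (scanpy 1.11.5, up to 0.8% per 1000 barcodes) was an alternative. T barcodes had at least 2 Cd3 genes and the same other limits, macrophages at least 3 of the 4 macrophage genes, and B barcodes Cd79a with Cd79b or Ms4a1. UMIs were summed per mouse and tested with edgeR 4.0.16 (R 4.3.3; filterByExpr, TMM, quasi-likelihood F test, Benjamini-Hochberg over all genes fitted, threshold 0.05), checked on simulated counts. Rule genes stayed in the fit and out of the calls. The minimum of 10 barcodes per mouse was lifted after the numbers were seen. Standard errors are the log2 change over the square root of F. Shares and ratios were compared by exact permutation over mice (two-sided). Named genes were the members of the lists, the 5 genes of smallest p in each direction, the 20 genes highest over other barcodes, the 10 highest and 10 lowest over T barcodes (pseudocount 0.1 per 10000, at least 0.5 per 10000) and the interaction calls. Mouse numbers did not pair the mice (correlations of deviations -0.055, -0.136 and -0.021). P-values rest on the spread between mice, which here also holds counting error and differences between the few barcodes of each mouse. Intervals and floors cover counting error only. Free RNA was not corrected. GENCODE vM39 held 33185 of the gene IDs. The proximal tubule barcodes had over 0.2% of the listed genes and 0 Ptprc UMIs. Python 3.11.15, scipy 1.17.1 and pandas 2.3.3 were used.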

Additional observations from a re-analysis of the deposited data

Results flagged for a closer look

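With all 6 mice, 5 genes passed the test of whether the difference between DOCA-salt and sham mice was another one in NK than in T barcodes, by the interaction term of edgeR's quasi-likelihood test. The log2 change in NK minus that in T barcodes was -6.49 for Car12, -2.94 for Ccl3, 5.17 for Plxnc1, -5.76 for Igfbp5 and -8.72 for Atg4a, with adjusted p from 0.0195 to 0.0321. All 5 rest on NK sums of 2 to 17 barcodes per mouse. Car12 and Igfbp5 were not called without the 2 NK barcodes of highest doublet score. Atg4a had 0 UMIs in DOCA-salt NK barcodes, so its value is a fitted one that depends on the prior count and is no bound, and Plxnc1 had 2, 0 and 0 against 8, 0 and 5 NK UMIs. With 1 mouse left out at a time, Plxnc1 and Atg4a were called in 0 of 6 fits and Ccl3 in 2, and none of the 5 without sham mouse 3 or without DOCA-salt mouse 3.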

How the results depend on the processing

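The NK share of kept and of Ptprc-positive barcodes and the NK to T ratio kept their direction in all alternatives run. In the replicate block form, an exact sign-flip test over mouse numbers gave p = 0.25 for the NK share, the smallest that 3 pairs allow, and the replicate block in the expression fit left 0 genes called (32 at an unadjusted p below 0.05). The share of conventional barcodes had no stable direction: its difference was -15.4 percentage points with at least 3 markers and ranged from -7.22 to 11.1 when 1 mouse was left out. For expression within NK cells, 14 genes were called without the filter on low counts, 1 (Kap) with at least 3 markers, and 0 to 7 with 1 mouse left out. The 14 included Kap, Fxyd2, Atp6v1g3, Gzmc, mt-Nd1, mt-Nd2 and mt-Co2. The 7, without sham mouse 2, were Xcl1, Kap, Fxyd2, Rpl27, mt-Nd1, mt-Nd2 and mt-Nd4. For the NK against T difference 0 genes were called without the filter, 3 without the barcodes of high doublet score, and 0 to 8 with 1 mouse left out. With library size only in place of TMM 7 were called, Xcl1 and Gramd3 being added. The genes at an unadjusted p below 0.05 then went from 34 higher and 119 lower to 95 higher and 91 lower. The cause was not tested. With 12 DOCA-salt barcodes, genes with few UMIs cannot be compared.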
